A study of Mus musculus with 8 samples.

Results

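The acrosome and sperm-egg interaction genes are 32 genes whose products build the acrosome of the spermatid, fill it with enzymes and binding proteins, or carry the sperm through the zona pellucida to the egg membrane. They were chosen by name, and 1 array probe set stood for each gene, the one with the highest mean over all 8 arrays among probe sets annotated to that gene alone. All 32 members were measured, among 18193 genes in all. In bulk preparations of round spermatids, 0 of the 32 rose and 0 fell in the mutant (limma, adjusted p under 0.05). In that fit, which did not pair the arrays, 1.86% of all genes rose and 1.85% fell. With same-numbered arrays paired, 1 member rose (Tex101) and 0 fell, where 6.6% and 4.94% of all genes did. For 27 of the 32 the 95% interval of the difference, in the fit without the pairing, lay within 2-fold in either direction. The members with wider intervals were Tex101, Calr3, Vps54, Gopc and Cylc1.

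The cells were round spermatids of adult mice of the 129 Sv/Ev strain, 2 to 4 months old, separated on a bovine serum albumin gradient. One group carried the BrdtΔBD1 allele, which removes the first bromodomain of Brdt, a testis-specific reader of acetylated histones, and the other group is labelled only as control. There were 4 mutant and 4 control arrays, and each array held RNA from a pool of 7 animals of its genotype, so an array is a pool and not an animal. The question put to the data is how transcript levels in these cells change with the loss of that bromodomain.

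The acrosome is a secretory vesicle that the round spermatid makes from Golgi-derived vesicles and spreads as a cap over the nucleus. It holds proteases, hyaluronidases and proteins that bind the zona pellucida, and its exocytosis exposes the membrane proteins that let the sperm fuse with the egg. Many of its genes are switched on after meiosis, so their transcripts mark round spermatids themselves. Mice that lack several of the genes below have round-headed sperm without a normal acrosome.

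Markers of the labelled cell were strong on every array. The mean of 18 measured round spermatid markers, protamines and transition proteins among them, lay between 13.76 and 14.03 in mutant and between 13.67 and 14.01 in control arrays (log2 intensity), and 0 of the 18 passed the threshold, with 2 lower at an unadjusted p under 0.05. Markers of other testis cells were also read, and several of these lists were higher in the mutant. Of 19 Sertoli cell markers 7 rose, and the list mean was 6.29 to 7.96 in mutant against 5.06 to 5.97 in control arrays, although the Sertoli genes Amh (1.95 and 1.97), Fshr (2.51 and 2.41) and Sox9 (3.80 in both) read near the floor of the scale. Of 14 spermatogonia markers 1 rose, with list means of 5.17 to 5.84 against 4.53 to 4.87. Of 15 spermatocyte markers 0 passed, although before adjustment 4 were higher and 1 was lower (p under 0.05), and 3 rose once the replicate number was a block. In array order, the spermatocyte list averaged 10.30, 10.27, 9.70 and 9.54 for the mutant and 9.85, 9.73, 9.46 and 9.57 for the control. Of 7 Leydig cell markers 2 rose, Gsta2 and Aldh1a1 (list means 3.90 to 4.19 against 2.75 to 3.34). The other 5, Cyp11a1, Cyp17a1, Hsd3b1, Star and Hsd17b3, averaged under 4 in both groups and did not pass, and Cyp11a1 was lower (-0.33). Among 16 peritubular, vascular and blood cell markers 1 rose (3.40 to 4.11 against 3.23 to 3.39). A mean under 4 in both groups also held for 10 of the 16 peritubular, vascular and blood markers. The same held for 6 of the 14 spermatogonia and 4 of the 19 Sertoli markers. A measure of RNA quality set control arrays 1 and 3 apart. The log2 signal at the 3' end of Gapdh exceeded that at its 5' end by 1.68 in control array 1 and 2.05 in control array 3, and by 0.33 to 0.94 in the remaining 6 libraries. In bulk samples, fewer cells of a type and less RNA per cell cannot be told apart.

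The count of members past the threshold (adjusted p under 0.05, limma with Benjamini-Hochberg adjustment over all genes) is read against the same count over all genes. Of the 18193 genes, 339 rose and 336 fell. At an unadjusted p under 0.05, 3 members were higher (Tex101, Calr3 and Vps54) and 1 was lower (Spam1), beside 11% of all genes higher and 9.16% lower. Among members, 21 had a lower and 11 a higher mean in the mutant. Centring the arrays on their medians, which moved the median of all genes by -0.15, left 27 members lower. The share of all genes with a lower mean is not given here. No lean of the members is therefore read from these counts, nor from those by role group below. The median log2 difference was -0.083 for the members and -0.022 for all genes, and the median size of the difference was 0.17 and 0.18. The smallest adjusted p of a member was 0.18, for Vps54. The 27 members with a mean of at least 10, a level chosen after the values were seen, had a median size of 0.15, against 0.19 for the 2809 genes at that level, of which 17 rose and 34 fell.

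**Figure D1:**
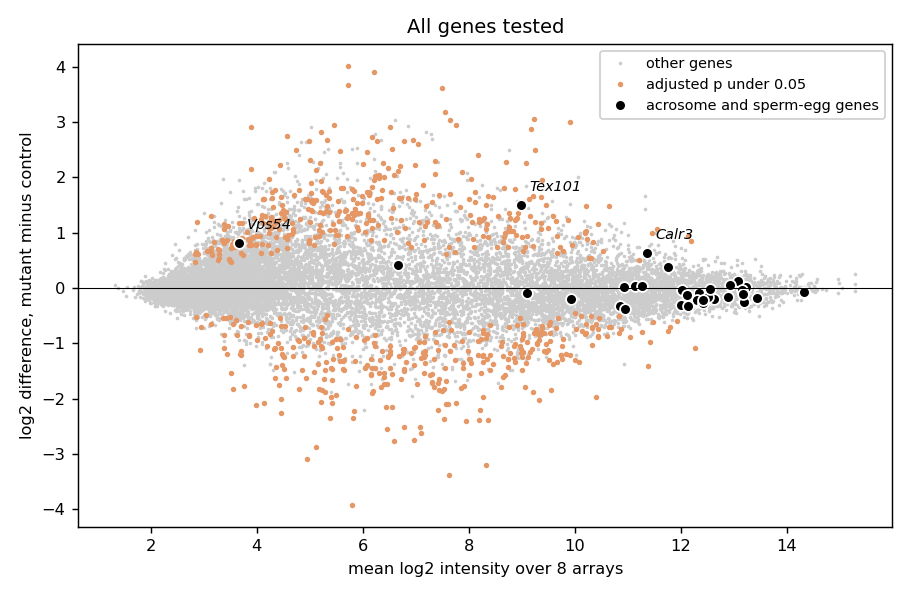
Log2 difference (mutant minus control) of 18193 genes against their mean log2 intensity over 8 arrays, with genes past an adjusted p of 0.05 in orange and the 32 acrosome and sperm-egg interaction genes in black. Most members lie close to 0 at the bright end, and Tex101, at a log2 difference of 1.499, is the member farthest from 0.

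Same-numbered arrays of the 2 genotypes deviated together, so the comparison was also made with the replicate number as a block. With the block, 1 member rose, Tex101, and 0 fell, where 6.6% of all genes rose and 4.94% fell. On the 1 probe set read per gene, the 2 genotypes were fully apart for 1 member, Spam1. All its mutant arrays lay below all control arrays, as in 6.49% of all genes. Among further probe sets, 1422874_at of Acrbp, 1449837_at of Spesp1 and the dim 1419936_at of Csnk2a2 (mean 2.45) were also apart and lower. No member had all mutant arrays above all control arrays, against 6.15% of all genes. In the 4 same-numbered pairs, 8 members were lower in the mutant array each time, Acr, Acrbp, Spaca3, Zp3r, Spesp1, Zpbp2, Spam1 and Spata16, beside 18.9% of all genes. Vps54 and Tex101 were higher each time, beside 17.7% of all genes.

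**Figure D2:**
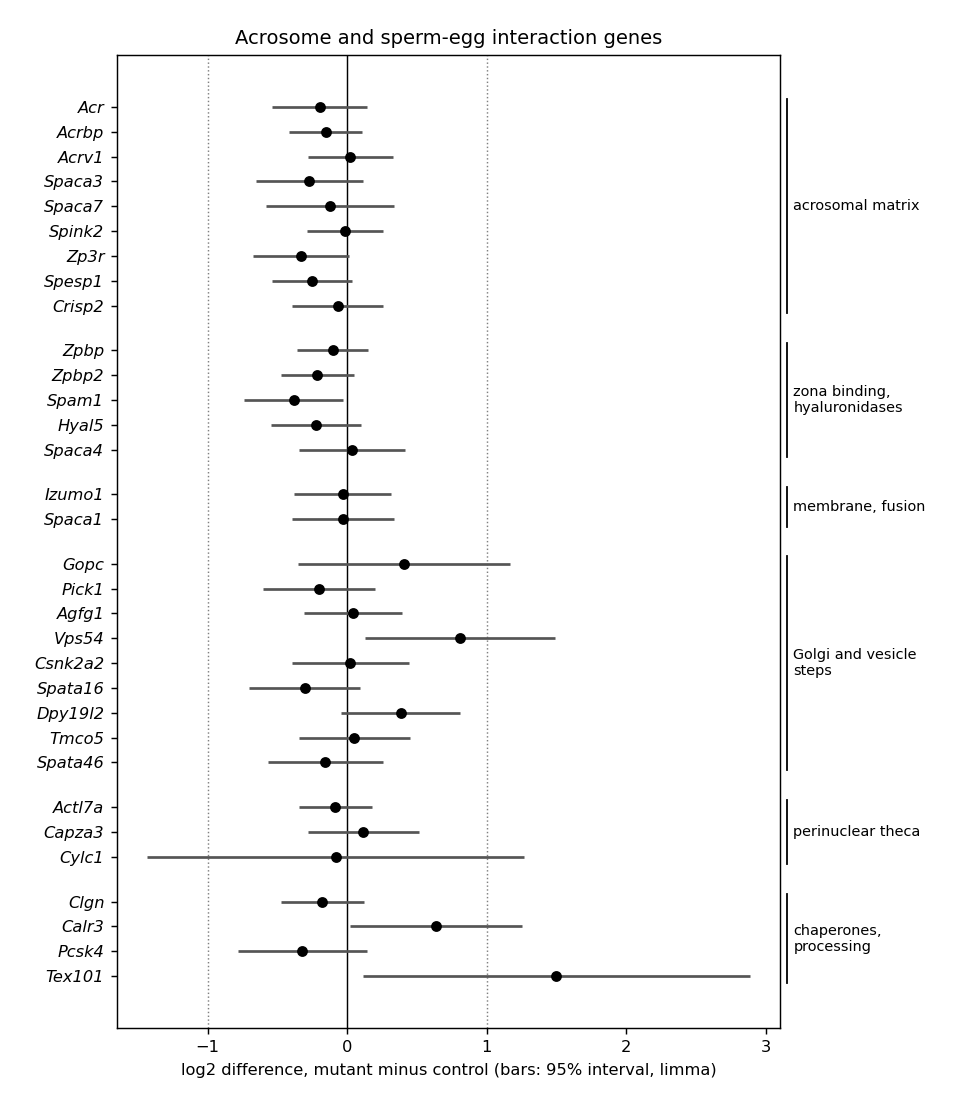
Log2 difference (mutant minus control) of each of the 32 genes, grouped by role, with dotted lines at a 2-fold change. Bars give the 95% interval of the limma fit without the replicate block. The interval lies between the dotted lines for 27 genes and crosses one for Tex101, Calr3, Vps54, Gopc and Cylc1.

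Promoter stretches are printed for 3 members the results turn on, the member with the largest difference (Tex101), the member without overlap (Spam1) and the 1 member with a full cyclic AMP response element (Izumo1). Such elements bind CREM, a factor known for switching on genes after meiosis. Each line gives the 250 bases before the annotated start, 5′ to 3′ on the gene's strand, from RefSeq on GRCm38.p6, and capitals mark TGACGTCA. The Izumo1 stretch is chr7:45621561-45621810 on the plus strand, the Tex101 stretch chr7:24672051-24672300 on the minus strand and the Spam1 stretch chr6:24790938-24791187 on the plus strand. The array values carry no genome build of their own.
Izumo1: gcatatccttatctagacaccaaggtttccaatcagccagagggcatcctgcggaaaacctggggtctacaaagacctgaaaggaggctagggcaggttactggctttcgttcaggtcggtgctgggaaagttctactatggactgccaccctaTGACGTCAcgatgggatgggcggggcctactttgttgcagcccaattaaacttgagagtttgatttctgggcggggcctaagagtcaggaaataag
Tex101: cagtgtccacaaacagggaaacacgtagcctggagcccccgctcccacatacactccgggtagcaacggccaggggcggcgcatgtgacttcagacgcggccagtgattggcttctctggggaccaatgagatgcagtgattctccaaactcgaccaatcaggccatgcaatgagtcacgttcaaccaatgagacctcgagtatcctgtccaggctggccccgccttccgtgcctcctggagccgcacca
Spam1: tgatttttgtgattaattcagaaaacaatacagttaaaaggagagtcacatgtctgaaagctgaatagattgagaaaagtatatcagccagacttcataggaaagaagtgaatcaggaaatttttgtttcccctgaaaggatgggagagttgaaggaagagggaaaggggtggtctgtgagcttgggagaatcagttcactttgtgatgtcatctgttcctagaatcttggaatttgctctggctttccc

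The element in Izumo1 begins 96 bases before the start. The promoter table, with windows of 300 bases across each start, held windows for 28 of the 32 members, 34 windows in all, and none for Acr, Capza3, Clgn and Pcsk4. On both strands, TGACGTCA was in 1 of these 34 windows (2.94%) and in 1.79% of all 32851 windows. The variant TGACGCA was in 0 of the 34, against 2.12% of all windows. The core TGACG, which is also part of both longer motifs, was in 12 of the 34 (35.3%), against 20.8% of all. It was found for Acrbp, Calr3, Dpy19l2, Gopc, Izumo1, Pick1, Spaca1, Spaca3, Spesp1 and Zpbp2. These are matches of letters and say nothing of binding.

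Of the 9 genes of the acrosomal matrix, 8 had a lower mean in the mutant and 0 passed the threshold, with log2 differences between -0.33 and 0.022. Here and below, readings are log2 intensities in array order, 1 to 4. Crisp2, a cysteine-rich secretory protein of the acrosome and tail, read 14.46, 14.39, 14.07 and 14.26 in mutant and 14.43, 14.41, 14.06 and 14.56 in control arrays. The arrays of both groups span nearly the same range, with a difference of -0.069 (95% interval -0.39 to 0.26). Acr, the gene of the protease acrosin, read 12.41, 12.70, 12.39 and 12.61 in mutant and 12.55, 12.93, 12.47 and 12.95 in control arrays. Each mutant array was below the control array of its number, by -0.14, -0.23, -0.088 and -0.33 in pairs 1 to 4. The groups overlapped, and the difference was -0.20 (SE 0.15, adjusted p = 0.52). It was -0.41 without control arrays 1 and 3, a fit that kept mutant arrays 1 and 3, which also read low. Spink2, a serine protease inhibitor that restrains acrosin, differed by -0.015 (95% interval -0.29 to 0.26).

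Zp3r, an acrosomal matrix protein that binds the zona, had the largest difference of this role group. It read 12.23, 11.66, 12.04 and 11.95 in mutant and 12.44, 12.03, 12.36 and 12.38 in control arrays. Mutant arrays 1 and 3 lay inside the control range and mutant arrays 2 and 4 below it, for a difference of -0.33 (SE 0.15, adjusted p = 0.27). Spaca3, a lysozyme-like acrosomal protein, differed by -0.27 (adjusted p = 0.42), and Spesp1, a protein of the equatorial segment, by -0.25 (adjusted p = 0.31). Spaca3 differed by -0.18 without mutant array 2, and Spesp1 by -0.41 without control arrays 1 and 3. Within pairs 1 to 4, Spesp1 differed by -0.25, -0.30, -0.078 and -0.38. A second Spesp1 probe set, 1449837_at, averaged 9.51 ± 0.045 in mutant and 9.87 ± 0.22 in control arrays (SD, n = 4). All its mutant arrays lay below all its control arrays, for a difference of -0.36. Its adjusted p over all probe sets was 0.20 in limma, and 0.15 with the replicate block. Spaca7, which helps sperm disperse the cumulus, differed by -0.12 and Acrv1, the SP-10 antigen of the acrosome, by 0.022.

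Acrbp, the proacrosin-binding protein, was read by 2 probe sets of its own. The one with the higher mean, 1451333_a_at, averaged 12.81 ± 0.11 in mutant and 12.96 ± 0.14 in control arrays (SD, n = 4), a difference of -0.15 (SE 0.12, adjusted p = 0.51). The other, 1422874_at, averaged 11.28 ± 0.12 against 11.76 ± 0.17, a difference of -0.48, with all mutant arrays below all control arrays. Its adjusted p over all probe sets was 0.088 in limma, and 0.048 with the replicate block. Mouse Acrbp gives a full-length and a shorter transcript, and which of them each probe set reads is not known here. A further probe set shared with Ing4 was not used.

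Of the 5 genes of zona binding and cumulus passage, 4 had a lower mean in the mutant and 0 passed. Spam1, the hyaluronidase PH-20 of the sperm surface, read 11.00, 10.33, 10.79 and 10.94 in mutant and 11.19, 11.16, 11.04 and 11.19 in control arrays. All mutant arrays lay below all control arrays, with mutant array 2 lowest. The mean was 10.76 ± 0.30 against 11.15 ± 0.073 (SD, n = 4), 1.30-fold lower, with a difference of -0.38 (95% interval -0.74 to -0.029, adjusted p = 0.21). It was -0.24 without mutant array 2. Hyal5, the other sperm hyaluronidase of the list, read 12.55, 12.06, 12.06 and 12.14 in mutant and 12.34, 12.56, 12.30 and 12.50 in control arrays. Mutant array 1 was among the highest and the other 3 mutant arrays were below every control array, for a difference of -0.22 (adjusted p = 0.43), or -0.34 without mutant array 1.

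Zpbp and Zpbp2 encode related zona-binding proteins of the acrosomal matrix, and loss of Zpbp leaves round-headed sperm. Zpbp read 13.15, 13.17, 13.05 and 13.15 in mutant and 13.40, 13.22, 13.03 and 13.28 in control arrays. The control range enclosed all 4 mutant arrays, and the difference was -0.10 (95% interval -0.36 to 0.15). Zpbp2 differed by -0.21 (SE 0.12, adjusted p = 0.35). Spaca4, a lipid-anchored acrosomal membrane protein needed to pass the zona, differed by 0.035.

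Both members of the acrosomal membrane and fusion group were close to 0. Izumo1, which binds its receptor Juno on the egg, read 12.23, 11.69, 11.99 and 12.16 in mutant and 12.16, 11.87, 11.92 and 12.25 in control arrays. Spaca1, a membrane protein whose loss disrupts the acrosome, read 13.43, 12.74, 13.14 and 13.26 against 13.25, 13.00, 13.12 and 13.31. For both genes mutant array 2 was the lowest of the 8, and the groups overlapped. The difference was -0.032 for Izumo1 (95% interval -0.38 to 0.31) and -0.029 for Spaca1 (95% interval -0.39 to 0.33).

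**Figure D3:**
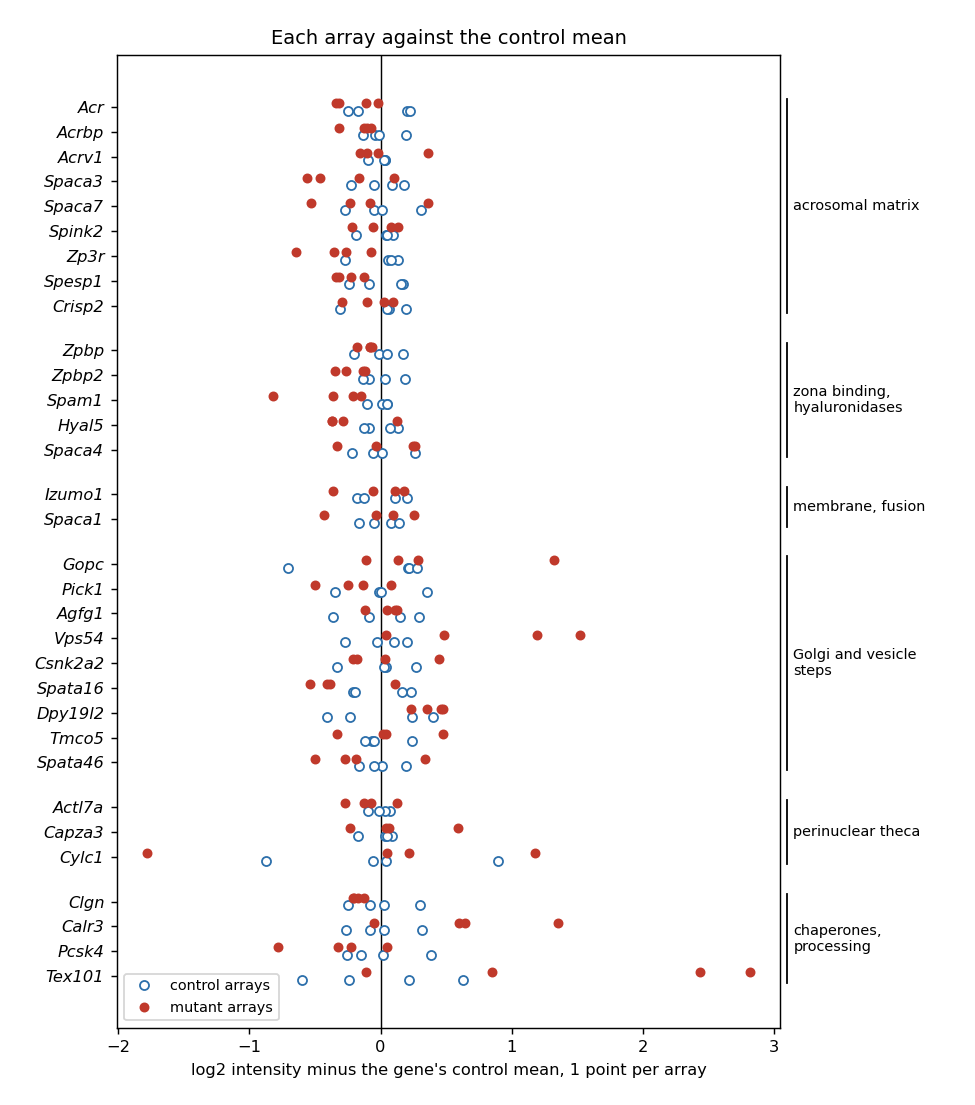
Log2 intensity of each array minus the control mean of the gene, for the 32 genes grouped by role, with mutant arrays as filled red and control arrays as open blue points. The groups overlap for every gene but Spam1, and the mutant arrays spread most for Tex101 and Cylc1.

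Of the 9 genes grouped under the Golgi and vesicle steps of acrosome formation, 6 had a higher and 3 a lower mean in the mutant, and 0 passed. The group also holds Dpy19l2 (higher) and Spata46 (lower), which are nuclear envelope proteins. Gopc, a Golgi protein, Pick1, its vesicle partner, Agfg1, which acts in vesicle fusion, and Csnk2a2, a casein kinase 2 catalytic subunit, are each needed for a normal sperm head in the mouse. Agfg1 and Csnk2a2 differed by 0.042 and 0.023, and Pick1 by -0.20 (adjusted p = 0.60). Further probe sets of Csnk2a2 numbered 6, and all of them had a lower mean in the mutant. Their log2 differences were -0.39 to -0.16, with adjusted p of 0.29 to 0.82 over all probe sets. Only 1453099_at was bright, with a mean of 10.35 over the 8 arrays, and the dimmest, 1419936_at, averaged 2.45. Gopc read 6.60, 7.78, 6.36 and 6.75 in mutant and 6.68, 6.68, 5.76 and 6.74 in control arrays. Mutant array 2 was high and control array 3 low while the other arrays lay within 6.36 to 6.75. The difference was 0.41 (95% interval -0.35 to 1.17, adjusted p = 0.56). It was 0.10 without mutant array 2, 0.17 without control array 3 and 0.16 without control arrays 1 and 3.

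Dpy19l2, a nuclear envelope protein that anchors the acrosome, read 12.05, 11.80, 11.92 and 12.03 in mutant and 11.16, 11.97, 11.34 and 11.81 in control arrays. Control arrays 1 and 3, the 2 with a high Gapdh 3' minus 5' difference, were low, and the other controls lay within the mutant range. The difference was 0.38 (SE 0.19, adjusted p = 0.30), 0.25 without control array 1 and 0.061 without control arrays 1 and 3. Spata16, a Golgi protein whose loss is a cause of round-headed sperm, read 11.62, 12.26, 11.74 and 11.77 in mutant and 12.39, 12.32, 11.94 and 11.96 in control arrays. Mutant array 2 lay inside the control range and the other mutant arrays below it, for a difference of -0.30 (SE 0.18, adjusted p = 0.38). Its second probe set, 1431968_at, differed by 0.076.

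Tmco5, a transmembrane coiled-coil protein, read 13.38, 12.58, 12.92 and 12.95 in mutant and 13.14, 12.84, 12.85 and 12.79 in control arrays. The mutant arrays spanned the control range on both sides, with a difference of 0.051 (95% interval -0.35 to 0.45). Spata46, a protein of the spermatid nuclear envelope, differed by -0.16 (adjusted p = 0.70).

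Vps54, a subunit of the complex that tethers endosome-derived vesicles at the Golgi, is mutated in the wobbler mouse, whose sperm lack a normal acrosome. It was the 1 member with a mean under 4, near the floor of the scale, and read 4.44, 4.77, 3.74 and 3.29 in mutant and 3.22, 3.45, 3.35 and 2.98 in control arrays. Mutant arrays 1 to 3 stood above all control arrays and mutant array 4 inside the control range. The mean was 4.06 ± 0.67 against 3.25 ± 0.20 (SD, n = 4), with a difference of 0.81 (SE 0.30, adjusted p = 0.18, and 0.056 with the replicate block). The control mean lay close to the array medians of 3.10 to 3.14, so no fold is given. Of its 4 other probe sets, all with means under 4, 2 were higher and 2 lower in the mutant.

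Of the 3 genes of the perinuclear theca and the actin plate under the acrosome, 0 passed. Capza3, a capping protein of actin filaments, read 13.61, 12.78, 13.08 and 13.06 in mutant and 13.10, 13.05, 12.84 and 13.07 in control arrays. Mutant array 1 was the highest and mutant array 2 the lowest of the 8, with a difference of 0.12 (95% interval -0.28 to 0.51). Actl7a, an actin-like protein that holds the acrosome to the nucleus, differed by -0.084 (95% interval -0.35 to 0.18).

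Cylc1, a basic structural protein of the theca, had, after Tex101, the largest standard error among the members (0.60). It read 10.32, 7.36, 9.36 and 9.19 in mutant and 10.03, 8.27, 9.08 and 9.18 in control arrays. Array 1 was highest and array 2 lowest in both genotypes. In the fit without the replicate block the difference was -0.082. Its 95% interval there, -1.43 to 1.27, takes in changes of over 2-fold in either direction. With the block the SE was 0.22, and the mutant array differed by 0.29, -0.91, 0.28 and 0.012 in pairs 1 to 4.

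Of the 4 genes of chaperones and surface protein processing, 2 had a higher and 2 a lower mean in the mutant. Tex101, a glycoprotein of the germ cell surface that is needed for the maturation of the sperm protein ADAM3, read 10.68, 11.05, 9.08 and 8.13 in mutant and 8.87, 8.45, 7.995 and 7.64 in control arrays. Mutant arrays 1 to 3 stood above all control arrays and mutant array 4 inside the control range. The mean was 9.74 ± 1.37 against 8.24 ± 0.54 (SD, n = 4), 2.83-fold higher, a difference of 1.499 (SE 0.61, 95% interval 0.11 to 2.89, adjusted p = 0.21). Within the pairs of arrays 1 to 4 the mutant array was higher by 1.81, 2.60, 1.09 and 0.49. With the replicate block Tex101 rose (SE 0.33, adjusted p = 0.037). Among the 18 alternatives the block alone brought it under the threshold, and the range was 0.037 to 0.42.

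Mutant arrays 1 and 2, where Tex101 and Vps54 were highest, also had the highest means of the spermatocyte list, 10.30 and 10.27, against 9.46 to 9.85 on the other 6 arrays. The part of those cells in the values of Tex101 and Vps54 was not tested.

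Calr3, a testis form of the chaperone calreticulin that also acts on ADAM3, read 12.40, 11.00, 11.69 and 11.64 in mutant and 11.36, 11.07, 10.97 and 10.78 in control arrays. Mutant arrays 1, 3 and 4 were above all control arrays, and mutant array 2 was inside the control range. The mean was 11.68 ± 0.57 against 11.05 ± 0.24 (SD, n = 4), 1.56-fold higher, a difference of 0.64 (SE 0.27, adjusted p = 0.23, and 0.088 with the block). It was 0.40 without mutant array 1. Its 2 further probe sets differed by 0.54 and 0.35, the second with a mean of 2.98 over the 8 arrays, at the floor of the scale. Mutant arrays 1, 3 and 4 also had the highest means of the Sertoli list, 7.77, 7.96 and 7.51, beside 6.29 on mutant array 2. In array order, the control arrays had Sertoli list means of 5.06, 5.20, 5.97 and 5.91, highest on arrays 3 and 4, where Calr3 was lowest. Whether those cells have a part in the Calr3 values was not tested.

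**Figure D4:**
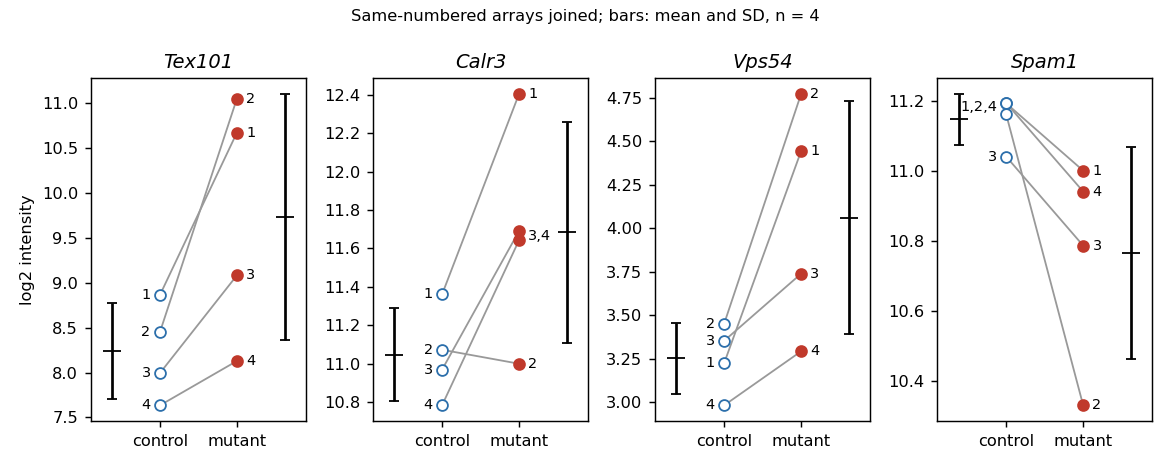
Log2 intensity of Tex101, Calr3, Vps54 and Spam1 on each array, numbered by replicate, with same-numbered control and mutant arrays joined and the mean and SD of 4 arrays at the sides. These are the members with an unadjusted p under 0.05. Tex101 and Vps54 are higher and Spam1 lower in the mutant array of all 4 pairs, and Calr3 is higher in 3 of 4.

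Clgn, the testis chaperone calmegin, read 13.32, 13.40, 13.32 and 13.36 in mutant and 13.83, 13.28, 13.55 and 13.45 in control arrays. The mutant arrays lay within 13.32 to 13.40, inside a wider control range, with a difference of -0.18 (95% interval -0.47 to 0.12). Pcsk4, a proprotein convertase of the sperm surface, read 10.69, 10.23, 10.79 and 11.06 in mutant and 11.40, 10.76, 10.86 and 11.03 in control arrays. Mutant array 2 was the lowest, and the difference was -0.32 (SE 0.20, adjusted p = 0.43). It was -0.17 without mutant array 2 and -0.19 without control array 1.

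The members also shared array to array variation within a genotype. Mutant array 1 was the highest mutant array for 18 of the 32 members and mutant array 2 the lowest for 17. In the control group, array 1 was the highest for 20 members and array 3 the lowest for 16. In array order, the round spermatid list averaged 14.03, 13.80, 13.76 and 13.86 in mutant and 13.91, 13.97, 13.67 and 14.01 in control arrays. The same counts over all genes are not given here, and whether the pattern is particular to the members was not tested. The median SD over the 4 arrays of a group was 0.26 for mutant and 0.20 for control arrays, against a median size of the difference of 0.17.

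Other genes of the same steps were read from lists of 84 genes, of which 78 were measured. In the same fit 1 rose and 1 fell, where 1.86% and 1.85% of all genes did. At an unadjusted p under 0.05, 12 were higher and 11 lower, beside 11% and 9.16% of all genes. Their median log2 difference was -0.035. Prss21, the lipid-anchored sperm protease testisin, read 11.07, 10.93, 10.82 and 10.94 in mutant and 12.24, 11.74, 11.85 and 11.84 in control arrays. The groups were well apart, and Prss21 fell by 0.98 on the log2 scale (SE 0.13, adjusted p = 0.0077), or 1.97-fold. It passed in all 8 fits without 1 array, and without control arrays 1 and 3 the difference was -0.85 (adjusted p = 0.076).

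Cd46, a complement regulator that mice carry on the inner acrosomal membrane, read 11.02, 9.63, 10.08 and 9.9997 in mutant and 8.18, 9.07, 8.04 and 8.89 in control arrays. All mutant arrays lay above all control arrays, and Cd46 rose 3.11-fold (difference 1.64, SE 0.33, adjusted p = 0.036). Leaving out mutant array 2 or control array 2 kept it past the threshold, and leaving out any of the other 6 did not. Over all 8 such fits the adjusted p was 0.018 to 0.098. Without control arrays 1 and 3 the difference was 1.20 (adjusted p = 0.24).

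By step, Prss21 and Cd46 both belong to the 18 measured genes of acrosomal content and membrane. None of the 14 genes of Golgi-derived acrosome formation, 10 of gamete adhesion and fusion, 11 of acrosomal exocytosis, 10 of endoplasmic reticulum quality control and 15 of the perinuclear theca passed. With the replicate block 5 of the 78 rose and 3 fell, beside 6.6% and 4.94% of all genes, and nothing particular to the lists is read from these counts. Those that rose were Cd46, Stx12, an endosomal SNARE (difference 1.22, adjusted p = 0.0042), Copb1, a coat protein of Golgi vesicles (0.46, 0.038), Wbp2nl, a protein of the perinuclear theca (0.91, 0.044), and Canx, the chaperone calnexin (0.63, 0.028). Those that fell were Prss21, Tmem81, a sperm membrane protein of the fusion complex (-0.95, 0.026), and Cplx1, a complexin of exocytosis (-0.80, 0.034). In that order each bracket gives the log2 difference and the adjusted p with the block. The Sertoli, spermatogonia, Leydig and peritubular, vascular and blood list means given above were higher on every mutant array than on any control array. Most markers of the Leydig and of the peritubular, vascular and blood lists averaged under 4 in both groups. The part of all these cells in the calls was not tested.

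**Figure D5:**
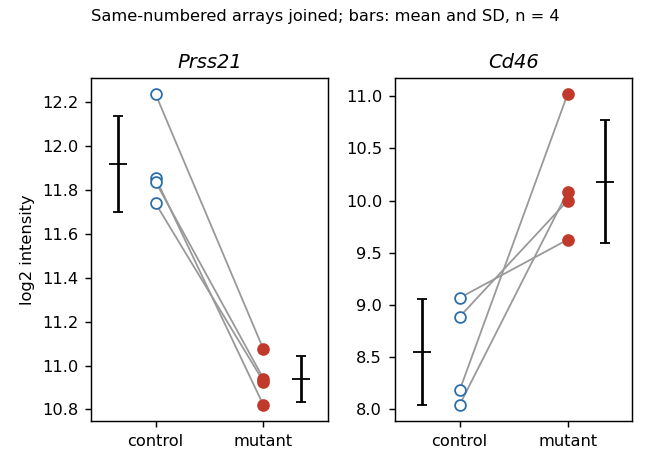
Log2 intensity of Prss21 and Cd46, genes of acrosomal content and membrane outside the 32 members, on each array, with same-numbered arrays joined and the mean and SD of 4 arrays at the sides. All mutant arrays lie below the control arrays for Prss21 and above them for Cd46.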

How the data were processed

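RNA of round spermatids was measured on 8 Affymetrix arrays, 4 of BrdtΔBD1 mutant and 4 of control mice, grouped and numbered by sample title. The authors deposited normalized log2 intensities, 1 value per probe set and array. GCRMA and limma are named in the submitters' processing notes, without a version. Dim probe sets sit at a floor after GCRMA, and their differences are understated. The log2 scale was read from the values, whose array medians were 3.10 to 3.14. The number of arrays limits the precision.

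Of 45101 probe sets, 64 Affymetrix controls were left out. Among the rest 34945 are annotated to 1 gene and 932 to several, and 9160 have no name here. A gene table of GRCm38.p6 gave current symbols for 34741 through their Entrez identifiers. The probe set with the highest mean stood for each of 18193 genes. Mutant and control were compared over all genes with limma 3.58.1 in R 4.3.3 (two-sided, Benjamini-Hochberg, threshold 0.05), after a test on simulated data. Differences are log2, mutant minus control, and the 95% intervals are those of single genes in the fit without the replicate block. Values of different probe sets are not compared as levels.

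Deviations from the group means correlated within each same-numbered pair (r = 0.36, 0.42, 0.50 and 0.41 for pairs 1 to 4, and -0.26 to -0.017 between other arrays), so the number pairs the arrays, from the data rather than from a stated shared day. Separate pools of animals are given for each array, and p-values measure the spread between pools. Alternatives were the block, a minimum mean of 4, the mean of all probe sets, adjustment over probe sets, an intensity trend, median, quantile and spermatid marker centring, array weights, and arrays left out. Members with all arrays apart, a difference of at least 0.5, or the brightest of their role group are given array by array, and so are some others chosen after their values were seen. Of the related genes, those past the threshold are named. The members, the lists of related genes and the marker lists were chosen with earlier results of these data known.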

Additional observations from a re-analysis of the deposited data

Results flagged for a closer look

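Control array 3 was the lowest control for 2 members by a gap that was large relative to the group's range, though small in size for Acrv1. Acrv1 read 13.13 there against 13.26 to 13.27 on the others, a gap of 0.95 of the group's range, and Gopc read 5.76 against 6.68 to 6.74 (0.93 of the range). Zpbp read 13.05 on mutant array 3 against 13.15 to 13.17 on the other mutant arrays (0.85 of the range). Each is past the 95% critical value of Dixon's test for 4 arrays, which chance passes in about 1 in 20 groups. These are 3 of 68 groups examined.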

How the results depend on the processing

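No member passed the threshold in 17 of 18 alternatives, and with the replicate block 1 rose (Tex101). Of 575 member values under alternatives, 41 changed sign, in 12 members whose differences were at most 0.12 in size, and 533 kept sign and side of the threshold. Median centring moved the median of all genes by -0.15 and gave Acrv1 -0.13, Spaca4 -0.11, Agfg1 -0.11, Csnk2a2 -0.12, Tmco5 -0.097 and Capza3 -0.031, with 27 members lower in place of 21. With array quality weights Acrv1 was -0.044, Agfg1 -0.062, Csnk2a2 -0.086 and Cylc1 0.16. With the mean of all probe sets Csnk2a2 was -0.22 and Tmco5 -0.089. Spink2 was 0.016 after quantile normalization and 0.013 with spermatid marker centring. Without control arrays 1 and 3 Acrv1 was -0.0094, Spaca7 0.040, Agfg1 -0.18, Csnk2a2 -0.0093 and Cylc1 0.33. Leaving out 1 array gave ranges of -0.092 to 0.082 for Acrv1, -0.12 to 0.11 for Spaca1, -0.041 to 0.16 for Spaca4, -0.28 to 0.015 for Spaca7, -0.10 to 0.077 for Izumo1, -0.079 to 0.14 for Agfg1, -0.12 to 0.11 for Csnk2a2, -0.077 to 0.052 for Spink2, -0.090 to 0.18 for Tmco5, -0.041 to 0.23 for Capza3, -0.50 to 0.48 for Cylc1 and -0.17 to 0.0056 for Crisp2. The cause was not tested.

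Of the related genes, 1 rose and 1 fell. The counts were 5 and 3 with the block, 3 and 2 with the mean of all probe sets, 0 and 1 adjusted over probe sets, 1 and 3 with median centring, 6 and 2 with quantile normalization, 5 and 1 with spermatid marker centring, 3 and 2 with array weights, and 0 and 0 without control arrays 1 and 3. Without 1 array 0 to 2 rose and 1 to 2 fell. Dim members such as Vps54 limit what these arrays can show.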
